A study of Mus musculus with 2 samples.

Results

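The genes described here encode the liver's bile, organic ion and ATP-binding cassette (ABC) transporters, and the question was which of them carried methylated DNA in the liver of Pemt-/- and Pemt+/+ mice, and how much. They were taken from the longer region list of each library by gene symbol. Every autosomal gene with at least 1 listed region and a Slco, Slc10a, Slc22a or Abca to Abcg symbol was kept. This gave 72 genes of 14073 autosomal genes listed, 67 with a region in the Pemt-/- library and 71 in the Pemt+/+ library, with 66 in both. Together they held 302 of 46362 autosomal regions with a gene in Pemt-/- and 398 of 63124 in Pemt+/+. Family members listed under another symbol, mostly Slc22a genes such as Slc22a26 (listed as BC014805), are not among the 72. They enter only the count against the RefSeq annotation.

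Liver DNA of male mice without a functional Pemt gene (Pemt-/-) and of wild-type mice (Pemt+/+), all fed high fat-high sucrose (HFHS) chow, was enriched for methylated fragments and sequenced, with 1 library per genotype. The sample records date the livers to 25 weeks of age and the start of the diet to 5 weeks, whereas the Methods give a shorter feeding for the sequenced livers. Bisulphite conversion ahead of the enrichment is named in the records but not in the Methods. The genotype, the animal and the library cannot be told apart. In whole liver DNA, the mixture of cell types and methylation within a cell type cannot be told apart either, and regions give no marker expression with which the tissue label could be checked. With no replicates, no p-value is given, and each comparison is of these 2 libraries.

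Bile forms when hepatocytes pump bile salts, phosphatidylcholine, cholesterol and conjugates across the canalicular membrane, mostly through ABC proteins that spend ATP. Uptake from blood across the sinusoidal membrane runs through solute carriers of the Slc10a, Slco and Slc22a families, which take up bile acids, organic anions and organic cations. Pemt makes phosphatidylcholine from phosphatidylethanolamine, and Abcb4 moves phosphatidylcholine into bile. Cytosine methylation in mammals lies mostly at CpG dinucleotides, so the number of CpGs in a stretch of DNA sets how much methylation it can carry, and promoters range from CpG-dense to nearly free of CpG.

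Promoter sequence was available for 58 of the 72 genes (RefSeq, GRCm38.p6), and the stretches printed here show that range in the 250 bases before the annotated start, with each CpG in capitals. Abca4 (chr3:122044210-122044459, plus strand), Abca15 (chr7:120328434-120328683, plus strand) and Abcc12 (chr8:86566591-86566840, minus strand) are shown because a listed region overlapped their start in both libraries. Abcb4 (chr5:8893471-8893720, plus strand) and Abcb11 (chr2:69342617-69342866, minus strand) are the phospholipid and bile salt exporters. Slco1b2 (chr6:141629268-141629517, plus strand), a hepatocyte uptake carrier, is shown because it had no listed region. Sequences are of the reference, on the gene's strand, and were not lined up with the regions, whose positions are in mm9.
Abca4: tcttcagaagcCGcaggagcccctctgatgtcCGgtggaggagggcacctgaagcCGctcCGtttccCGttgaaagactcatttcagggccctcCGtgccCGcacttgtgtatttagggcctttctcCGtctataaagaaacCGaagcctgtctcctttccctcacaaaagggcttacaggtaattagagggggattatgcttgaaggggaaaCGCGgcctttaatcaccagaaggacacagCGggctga
Abca15: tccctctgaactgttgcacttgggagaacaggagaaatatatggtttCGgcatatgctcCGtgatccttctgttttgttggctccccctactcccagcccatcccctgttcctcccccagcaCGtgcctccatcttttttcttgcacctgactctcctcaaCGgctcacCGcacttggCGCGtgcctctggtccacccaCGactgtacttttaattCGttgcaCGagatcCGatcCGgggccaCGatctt
Abcc12: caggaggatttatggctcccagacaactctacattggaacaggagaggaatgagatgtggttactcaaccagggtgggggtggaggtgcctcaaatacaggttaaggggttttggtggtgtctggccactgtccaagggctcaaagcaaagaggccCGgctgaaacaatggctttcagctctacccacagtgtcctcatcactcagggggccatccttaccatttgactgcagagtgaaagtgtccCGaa
Abcb4: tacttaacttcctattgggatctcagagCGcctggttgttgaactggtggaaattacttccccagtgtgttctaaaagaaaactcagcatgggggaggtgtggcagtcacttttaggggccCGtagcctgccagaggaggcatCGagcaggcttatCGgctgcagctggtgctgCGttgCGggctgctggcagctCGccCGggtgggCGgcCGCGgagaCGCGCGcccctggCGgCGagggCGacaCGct
Abcb11: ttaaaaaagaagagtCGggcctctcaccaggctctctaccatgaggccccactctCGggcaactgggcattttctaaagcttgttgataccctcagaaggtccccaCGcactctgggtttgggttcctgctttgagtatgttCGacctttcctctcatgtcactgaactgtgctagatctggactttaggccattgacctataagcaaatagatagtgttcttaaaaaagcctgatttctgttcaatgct
Slco1b2: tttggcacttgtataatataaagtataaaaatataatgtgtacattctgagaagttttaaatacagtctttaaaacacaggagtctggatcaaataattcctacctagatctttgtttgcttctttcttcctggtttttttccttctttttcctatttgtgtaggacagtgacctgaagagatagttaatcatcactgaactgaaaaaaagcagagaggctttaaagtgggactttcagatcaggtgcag
These stretches held 12 CpGs in Abca4, 13 in Abca15, 2 in Abcc12, 18 in Abcb4, 4 in Abcb11 and 0 in Slco1b2. Thus starts overlapped by a region included both CpG-dense and CpG-poor sequence.

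The Pemt+/+ list is the larger one for the transporters as for all genes, so tags (reads counted in a region) were compared after scaling. Where a region overlapped one of the other library by at least 1 bp, the pair was counted as 1 site. The tags of a site are those of each library's own listed regions, whose extents can differ. Coordinates given for a paired region or site are those of the Pemt+/+ region. The scaled ratio is the Pemt-/- tags divided by the Pemt+/+ tags of a gene's paired regions, divided in turn by 0.682, the median ratio of 78303 paired autosomal regions. A scaled ratio of 1 means that a gene followed the rest of the genome. The intervals beside it are 95% Wilson intervals and cover counting error only. Library totals are unknown, so a scaled ratio says nothing on total methylation.

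Abcb4, the canalicular phosphatidylcholine exporter, had 4 listed regions in each library, all inside the transcript on chromosome 5 and none at a start. At chr5:8912627-8914060 (mm9) Pemt-/- held 39 tags, its most at any Abcb4 site, and Pemt+/+ held 47. At chr5:8924618-8925596 they held 31 and 53, and at chr5:8930662-8930951 they held 11 and 9. A further region, chr5:8927727-8928159 with 25 tags, was listed in Pemt+/+ only. Over the 3 paired sites Abcb4 held 81 tags against 109, a scaled ratio of 1.09 (0.818 to 1.45). The interval included 1, and the ratio turned below 1 with the upper 50% of each list by score (0.9), with an overlap of at least 50% (0.952) and with all regions of the gene (0.887), so no direction is given for Abcb4. The individual sites lay on both sides of 1, at 1.22, 0.858 and 1.79. No listed region of Abcb4 overlapped a transcript start or lay upstream of the gene within 10 kb in either library, so the CpG-dense stretch printed above carried none that the lists tie to Abcb4.

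Each of the 8 canalicular export genes was listed, with 40 regions in Pemt-/- and 43 in Pemt+/+, and none of the 8 passed 1.5-fold in either direction, where 5.67% of all genes passed it upwards and 5.51% downwards. Their median scaled ratio was 1.12, with 5 of 8 above 1, against a median of 0.954 over the 65 transporter genes with at least 20 paired tags and 0.991 over all 11772 such genes. Abcb11, the bile salt export pump, held 67 tags against 82 in paired regions, a scaled ratio of 1.2 (0.869 to 1.65). Its 5 paired regions were split between the gene body and a pair of upstream sites, with midpoints at -5743 and -7287 bp from the start. A sixth region of Abcb11, chr2:69130200-69130511 with 13 tags, was listed in Pemt-/- only.

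Abcc2, which exports conjugated bilirubin and glutathione conjugates, had 7 regions in the Pemt-/- list against 5 in the Pemt+/+ list. Of these, 3 were listed in Pemt-/- only, all inside the gene, with 12, 25 and 10 tags, and 1 with 15 tags in Pemt+/+ only. Over all regions with a gene, 17.7% in Pemt-/- and 39.6% in Pemt+/+ had no counterpart. Its paired regions held 71 and 120 tags, a scaled ratio of 0.868 (0.648 to 1.16). At 1 of them, chr19:43905417-43905796, Pemt-/- held 13 tags and Pemt+/+ 34, a scaled ratio of 0.561, and 4.18% of all paired sites with a gene were as low. The interval of the Abcc2 ratio over all its paired regions included 1.

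Abcg5 and Abcg8, whose products form the canalicular cholesterol exporter, lie head to head on chromosome 17 and share 2 paired regions. Abcg5 held 79 tags against 88, a scaled ratio of 1.32 (0.973 to 1.78). Abcg8 held 75 against 96, a scaled ratio of 1.15 (0.848 to 1.55). The shared regions, with 14 against 12 tags and 12 against 19, count in both values. Abcg2, an exporter of drugs and conjugates, held 37 against 64, a scaled ratio of 0.848 (0.567 to 1.27). It had 1 region of 4 without a counterpart in Pemt-/- and 4 of 7 in Pemt+/+. Over all regions with a gene, these shares were 17.7% and 39.6%.

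The drug exporters Abcb1a and Abcb1b lie next to Abcb4 and are close copies of each other, so reads may be split between them. Abcb1a held 77 tags against 85, a scaled ratio of 1.33 (0.977 to 1.81), and Abcb1b held 38 against 73, a ratio of 0.763 (0.517 to 1.13). The neighbouring copies thus lay on opposite sides of 1, with both intervals including it. A single Abcb1a site stood out, chr5:8660828-8661146, centred 896 bp after the start, with 24 tags in Pemt-/- and 13 in Pemt+/+. Its scaled ratio of 2.71 was the highest of the 247 paired transporter sites, and 0.227% of the 37914 paired sites with a gene were as high.

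Of the sinusoidal uptake carriers, 3 with listed regions are described. Slc10a1, the sodium-dependent bile acid carrier of the sinusoidal membrane, had 2 paired regions, both beyond the end of the gene, with 22 tags against 23 and a scaled ratio of 1.40 (0.788 to 2.50). Slco1a4, an organic anion carrier, had 34 against 42, a ratio of 1.19 (0.758 to 1.86), in regions outside the transcript on both sides. Slco2b1, another organic anion carrier, had 18 against 37, a ratio of 0.714 (0.409 to 1.24). Few tags stood behind each value, and these 3 intervals included 1. Slco1a1, Slco1b2 and Slc22a7 had no listed region in either library.

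Of the sinusoidal exporters Abcc1, Abcc3, Abcc4 and Abcc6, all but Abcc4 were listed. The Pemt-/- list held 7 of their regions against 14 in the Pemt+/+ list, and 10 of the 14 had no counterpart, where 39.6% of all Pemt+/+ regions with a gene had none and 62.2% of all genes had more regions in Pemt+/+. Abcc3, which returns conjugates and bile acids to blood, accounted for 4 of the 10, with 13, 20, 12 and 9 tags. Its only paired region held 12 tags against 15, a scaled ratio of 1.17 (0.559 to 2.46). Abcc1 held 48 against 60 in paired regions, also a ratio of 1.17 (0.805 to 1.71), and Abcc6 held 30 against 51, a ratio of 0.863 (0.552 to 1.35). The intervals of all 3 ratios included 1. Abcc4 had no listed region although the gene spans 225165 bp.

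**Figure D1:**
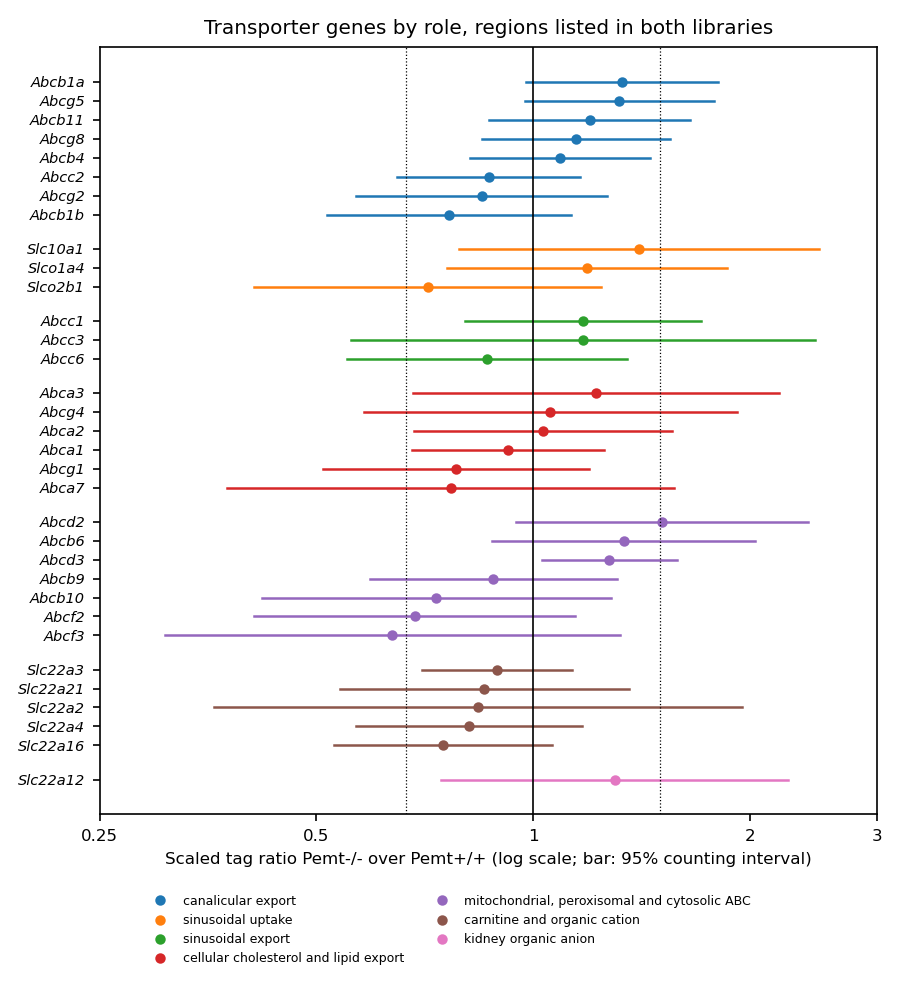
Scaled tag ratio (Pemt-/- over Pemt+/+, log axis) of transporter genes with at least 20 paired tags, grouped by role. Points are ratios, bars 95% counting intervals, and dotted lines 1.5-fold. Most intervals cross 1, and those of the 5 carnitine and organic cation carriers lie around points below it.

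The 6 cellular cholesterol and lipid exporters were all listed, with 20 regions in Pemt-/- and 26 in Pemt+/+, and none passed 1.5-fold. Abca1, which loads cholesterol and phospholipid onto apolipoprotein A-I, held 66 tags against 105, a scaled ratio of 0.922 (0.678 to 1.25). Abcg1, which exports cholesterol to high density lipoprotein, held 32 against 60, a ratio of 0.782 (0.511 to 1.2). At Abcg1, 3 of the 6 Pemt+/+ regions had no counterpart in Pemt-/-, where 39.6% of all Pemt+/+ regions with a gene had none. The 2 of these toward the end of the gene carried 32 and 25 tags. The other members lay between 0.768 for Abca7 and 1.22 for Abca3.

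Among the mitochondrial, peroxisomal and cytosolic ABC genes, 10 of 11 were listed, with 24 regions in Pemt-/- and 41 in Pemt+/+. Abcd2, a peroxisomal importer of very long chain fatty acyl-CoA, passed 1.5-fold upwards with 35 tags against 34, a scaled ratio of 1.51 (0.946 to 2.41). Abcd3, a peroxisomal importer of branched chain acyl-CoA and bile acid precursors, held 153 against 176, a ratio of 1.28 (1.03 to 1.58), and its interval lay above 1. Abcb6, a porphyrin transporter, held 41 against 45, a ratio of 1.34 (0.878 to 2.03). Abcb10, of the mitochondrial inner membrane, held 18 against 36, a ratio of 0.733 (0.420 to 1.28). Abcf3, an ABC protein without membrane segments, passed 1.5-fold downwards with 10 against 23, a ratio of 0.638 (0.308 to 1.32). Abcf2, of the same family, held 21 against 45, a ratio of 0.684 (0.410 to 1.14). Both Abcd genes thus lay above 1 and both Abcf genes with paired regions below it. Abcb8 and Abce1 had regions in Pemt+/+ only, and the regions of Abcf1 did not overlap between libraries. Over all genes, 88.6% had regions in both libraries, and 39.6% of Pemt+/+ regions with a gene had no counterpart.

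All 5 listed carnitine and organic cation carriers lay below 1, with a median of 0.838 and none past 1.5-fold. The ratios ran from 0.749 (0.528 to 1.06) for Slc22a16, a carnitine carrier, to 0.892 (0.702 to 1.13) for Slc22a3, an organic cation carrier. Their paired regions together gave 36.4% of tags to Pemt-/- (interval 32.8 to 40.2%). Slc22a5, the main carnitine carrier, had no listed region. Of the 5 kidney organic anion carriers, Slc22a12 alone was listed, with 23 tags against 26. Slc10a2, the ileal bile acid carrier, had 1 region of 11 tags, in Pemt-/- only.

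Counted over all transporters, 2 of 65 genes (3.08%) passed 1.5-fold upwards, where 5.67% of all genes did, and 3 (4.62%) passed it downwards, where 5.51% of all genes did. These shares were no larger than the background. The genes upwards were Abca8a and Abcd2. Abca8a, a lipid transporter of the chromosome 11 cluster, held 58 tags against 53, a scaled ratio of 1.61 (1.11 to 2.32). Its 3 paired regions held 10 against 13, 19 against 14 and 29 against 26 tags, so that each site lay above 1 after scaling. The downward genes were Slco1c1, Abcf3 and Abca15. Slco1c1, a thyroid hormone carrier, held 14 against 40 at a single paired region, chr6:141479605-141480357, a ratio of 0.513 (0.282 to 0.935), and a second region of 15 tags was listed in Pemt+/+ only. Abca15 held 21 against 47, a ratio of 0.655 (0.394 to 1.09). Both of its paired sites are also counted for its neighbour Abca14, whose ratio was 0.893 (0.693 to 1.15).

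The counting interval lay above 1 for 2 transporter genes (3.08%), Abca8a and Abcd3, where 3.28% of all genes had such an interval. It lay below 1 for Slco1c1 alone (1.54%), where 4.53% of all genes had one. Of the 65 ratios, 27 were above 1, against 5678 of 11772 over all genes. The 5th to 95th percentile ran from 0.690 to 1.33, against 0.660 to 1.55 over all genes. Over all paired transporter regions 4030 of 10027 tags (40.2%, 39.2 to 41.2%) came from Pemt-/-, against 40.0% over all genes.

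**Figure D2:**
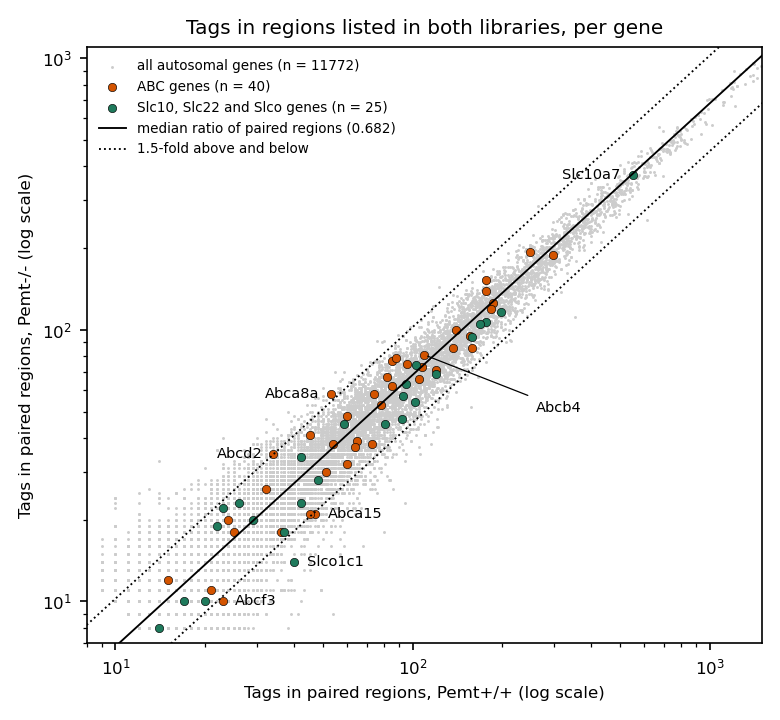
Tags in regions listed in both libraries per gene, Pemt+/+ on the x axis and Pemt-/- on the y axis (both log), for all 11772 genes with at least 20 paired tags (grey), 40 ABC genes (orange) and 25 Slc10, Slc22 and Slco genes (green). The solid line is the median ratio 0.682 and the dotted lines are 1.5-fold. Transporters follow the cloud of all genes, with Slc10a7 at the top.

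Site by site the picture was the same. The 247 paired transporter sites had a median scaled ratio of 1.01, as had all 37914 paired sites with a gene. At least 1.5-fold higher were 28 sites (11.3%), against 10.8% of all sites, and at least 1.5-fold lower were 24 (9.72%), against 10.9%. Shares near the background hold no result about the transporters.

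Between the gene families, the Abc genes gave 41.2% (40.0 to 42.4%) of paired tags to Pemt-/- and the Slc and Slco genes 38.5% (36.9 to 40.0%). The intervals met at about the 40.0% of all genes, with the Abc genes above it and the Slc and Slco genes below it. Within them, the Abcd pair had the highest share, 47.2% (42.4 to 52.1%), and the Abcf genes the lowest, 31.3% (23.0 to 41.0%). The Slco genes gave 37.2% (34.8 to 39.7%). The intervals of the Abcd pair and of the Slco genes left out 40.0%, but they cover counting error only. Regions of a gene are not replicates, and these shares describe 1 library each.

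Regions listed in 1 library only made up 52 of 302 transporter regions in Pemt-/- (17.2%, 13.4 to 21.9%), where 17.7% of all regions with a gene did. In Pemt+/+ they made up 151 of 398 (37.9%, 33.3 to 42.8%), where 39.6% of all did. Both shares lay at the background. Such regions were shallow, with a median of 10 tags in Pemt-/- and 12 in Pemt+/+, against 14 and 21 for shared regions, and the lists end at 8 and 9 tags. More regions were listed in Pemt+/+ for 47 of 72 genes (65.3%), against 62.2% of all genes. Abca4, the retinal flippase, had the widest gap, with 7 regions in Pemt-/- against 16, and 11 of the 16 were listed in Pemt+/+ only. Slco2a1, a prostaglandin carrier, had 8 and 16, with 8 in Pemt+/+ only. In the other direction Slco5a1 had 9 and 6, with 4 in Pemt-/- only. In their paired regions these genes had scaled ratios of 0.991, 0.911 and 0.867. Such ratios leave out the regions of 1 library only, which make the gaps, so they say nothing on the gaps.

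**Figure D3:**
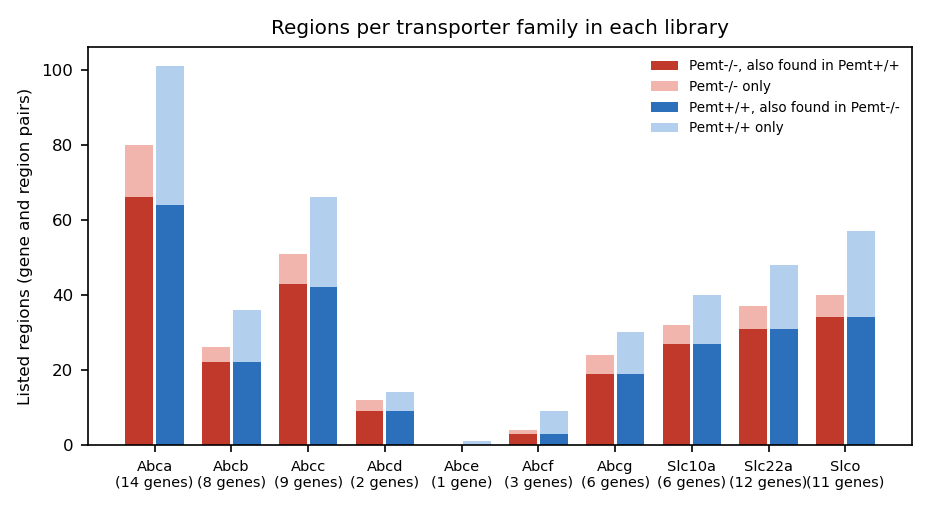
Number of listed regions per transporter family (y axis, pairs of gene and region) in Pemt-/- (red) and Pemt+/+ (blue), split into regions also found in the other library (dark) and regions of that library only (pale). The dark parts are nearly equal, and the pale part is larger in Pemt+/+ in every family, as with 37 against 14 regions in Abca.

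By the relations given in the lists, the intervals of the transporter shares inside the transcript lay above the shares over all genes, and those beyond its end lay below. Inside were 76.5% (71.4 to 80.9%) of transporter gene and region pairs in Pemt-/- and 76.9% (72.5 to 80.7%) in Pemt+/+, against 71.3% and 70.8% over all genes. Beyond the end were 8.82% (6.13 to 12.5%) and 9.70% (7.18 to 13.0%), against 14.0% and 14.4%. The inside interval of Pemt-/- cleared the share of all genes only just, at 71.4% against 71.3%. Slc10a7 alone gave 24 of the inside pairs in Pemt-/- and 29 in Pemt+/+. Pairs of 1 gene are not independent, which the intervals leave out, and shares without Slc10a7 were not computed. The part of gene length in these shares was not tested. Transporter genes are longer, with a median of 54781 bp against 21695 bp over all listed genes, and longer transporter genes had more regions (Spearman correlation across 72 genes 0.74 in Pemt-/- and 0.66 in Pemt+/+, genes not being independent). Slc10a7, a Slc10 member not known as a bile acid carrier, had the most regions, 25 in Pemt-/- and 30 in Pemt+/+. Its paired regions held 371 tags against 554, a scaled ratio of 0.982 (0.861 to 1.12), the narrowest interval of any transporter.

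A region within 1 kb of a transcript start was listed for 10 of 72 transporter genes (13.9%, 7.72 to 23.7%), against 9.86% of all genes. The start position could be derived for 37 of the 72, so starts of the rest are counted only where a region overlapped them. Of the 10, 6 had such a region in both libraries. Slco5a1, an organic anion carrier family member, had the most tags there, 15 in Pemt-/- and 34 in Pemt+/+, at chr1:12979620-12980262 for Pemt+/+. Abcb1a followed with the site of 24 and 13 tags described above. Abca4 had 13 and 24 at chr3:121747069-121747714, across the start of the sequence shown with 12 CpGs. Abca15 had 8 tags at chr7:127472075-127472322 in Pemt-/- and 25 in a longer region, chr7:127471871-127472327, in Pemt+/+. Both lay across the start shown with 13 CpGs. The Abca15 site had the lowest scaled ratio of all 247 transporter sites, 0.469, and 1.28% of all paired sites were as low. Slc22a23, an orphan carrier, had 11 and 18 tags somewhat before its start. Abcc12, shown with 2 CpGs, had 13 and 14 across it. The other 4 were in 1 library only, with 11 tags at Abca14 and 14 at Slco6b1 in Pemt-/-, and 12 at Abcg3 and 14 at Slco6c1 in Pemt+/+. Several of these genes (Abca14, Abca15, Abcg3, Slco6b1 and Slco6c1) belong to clusters of close copies, where reads may be shared. Of the 8 canalicular exporters, Abcb1a alone had a region counted near a start.

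**Figure D4:**
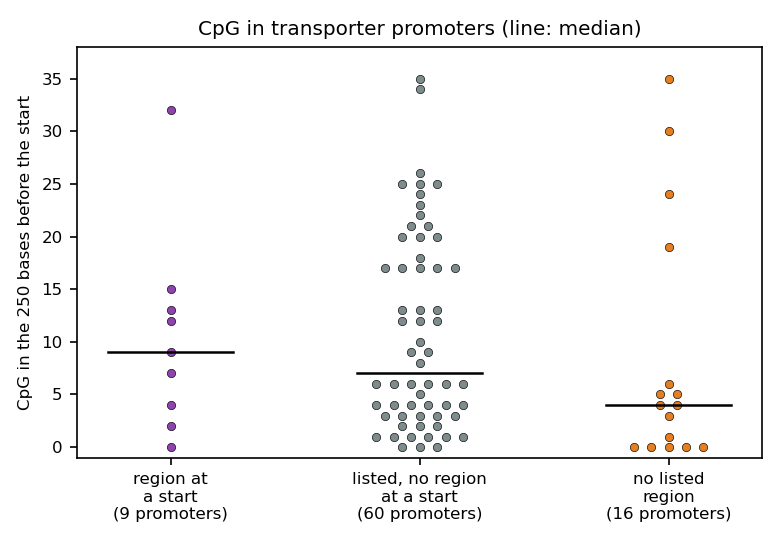
Number of CpGs in the 250 bases before each annotated start (y axis, points are promoters, lines medians) for transporter genes with a region at a start, listed genes without one, and genes with no listed region. Medians are 9, 7 and 4, and the ranges of the 3 sets overlap. The Abcb1a promoter in the first set, with 0 CpGs, belongs to another start than the listed one near its region.

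Genes with no listed region were counted against the RefSeq annotation. Of 93 protein-coding autosomal transporter genes, 76 (81.7%, 72.7 to 88.3%) had a region under the same or another symbol, against 66.6% of all protein-coding autosomal genes. The 17 without one included the uptake carriers Slco1a1, Slco1b2 and Slc22a7, the exporter Abcc4, the carnitine carrier Slc22a5, and the kidney anion carriers Slc22a6, Slc22a8, Slc22a13 and Slc22a19. For 15 of the unlisted genes 16 promoters were available, with a median of 4 CpGs in the 250 bases before the start. All autosomal promoters had a median of 6. Of the 16, only 5 (31.2%) had no CpG, against 7.64% of all autosomal promoters, so the share rests on few promoters. Whether the transcripts of these genes were in the annotation behind the lists was not tested.

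Each library also has a shorter region list, whose making is not given in the sources used here. Of the transporter regions, 11 of 302 (3.64%, 2.05 to 6.4%) overlapped the shorter list in Pemt-/-, where 2.22% of all regions with a gene did, and 12 of 398 (3.02%, 1.73 to 5.2%) in Pemt+/+, where 4.72% did. Both intervals include the background. The shorter Pemt-/- list named 12 transporter genes with 12 regions, each with a listed false discovery rate (FDR) of 100%. By score (10 times the −log10 p-value) Abcb9 came first with 78.0 and 11 tags, then Abcc10 with 66.5 and 15 tags and Abcg2 with 60.8 and 15 tags. Slc22a23 followed with 58.4 and 8 tags, and Abcb11 with 56.6 and the 13 tags of its Pemt-/- region. The shorter Pemt+/+ list named 10 genes with 13 regions, at an FDR of 30.4 to 36.3%. The highest scores were 70.0 at Slco1a6 with 11 tags, 66.8 at Slco2a1 with 10 and 62.4 at Abcc3 with 12. Slco1a5 had 55.7 with 11 tags, and Abcc2 had 55.3 with the 34 tags of the region that held 13 in Pemt-/-. Abcc3 was the only gene in both, by different regions, with 1 in Pemt-/- and 2 in Pemt+/+. No FDR among them was low, and the regions held 8 to 18 tags in Pemt-/- and 9 to 34 in Pemt+/+.

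Other genes of bile acid synthesis, conjugation and signalling were counted from a list of 27, of which 18 were listed and 15 had at least 20 paired tags. Of these, 3 of 15 passed 1.5-fold upwards, where 5.67% of all genes did, and 2 of 15 downwards, where 5.51% did. The median scaled ratio was 1.02. Baat, which conjugates bile acids to taurine or glycine, held 16 tags against 10, a scaled ratio of 2.35. Scp2, a sterol carrier with peroxisomal thiolase activity, held 16 against 15, a ratio of 1.56, and Cyp7b1, the oxysterol hydroxylase, held 60 against 57, a ratio of 1.54. Hsd3b7, an early enzyme of the pathway, held 11 against 27, a ratio of 0.598, and the oxysterol receptor gene Nr1h3 held 15 against 33, a ratio of 0.667. Of the genes past 1.5-fold, all but Cyp7b1 had fewer than 50 paired tags, and no counting intervals were computed for this list. With a minimum of 50 tags, 2.57% of all genes passed upwards and 3.99% downwards, and of this list Cyp7b1 alone passed, upwards. Both shares of the 15 genes lay above those of all genes, but whether they differ was not tested. No excess is read from so few genes. Cyp7a1, the rate-limiting enzyme of bile acid synthesis, held 35 against 46, a ratio of 1.12. The bile acid receptor gene Nr1h4 had no listed region.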

How the data were processed

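Methylated DNA from livers of both genotypes on HFHS chow was sequenced by the authors on a Genome Analyzer, with 1 library per genotype. The submitters' processing notes name CASAVA version 1.8.2, Bowtie and the build mm9. Region names are those of MACS, whose settings and control are not given in the sources used here. The authors deposited a longer and a shorter region list per library, each giving the count of tags per region, the fold enrichment as a ratio over background, a score that is the −log10 of the p-value multiplied by 10, and the FDR as a percent, with relations and distances to RefSeq transcripts within 10 kb. The lowest score was 50. The FDR and scores of the authors' regions are printed as deposited. Duplicate handling and control reads bear on tags.

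Each region was used once per gene. Overlaps used bedtools version 2.31.1 with 1 bp as minimum, and overlapping regions were joined into sites, a partner counting whatever gene it was given to. Autosomal regions of the longer lists held 1554629 and 2796810 tags. Genes with at least 20 paired tags were compared, with 1.5-fold as the limit. Transcript starts in mm9 came from the distances in the lists. For 4747 of 4765 transcripts with several upstream regions these implied 1 start. All 72 genes matched a RefSeq identifier, and the RefSeq table of GRCm38.p6 served for names, lengths, strands and promoter sequence only. Python version 3.11.15, pandas 2.3.3, numpy 2.4.6, scipy 1.17.1 and matplotlib 3.10.9 were used, and the calculations were tested on simulated data. Intervals are Wilson 95% intervals and treat reads as independent molecules.

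The genes, role lists and pathway list were chosen with earlier results of these data known. Genes were named by a rule. It took the role lists, the 5 highest and 5 lowest scaled ratios among genes with at least 50 tags, the 5 highest scores of each shorter list and the 5 start regions with the most tags. It also took the gene with the most regions. Abca4, Slco2a1, Slco5a1 and Abcd3 come under this rule. The region gaps given for Abca4, Slco2a1 and Slco5a1, and the interval of Abcd3, were nevertheless chosen after their values were seen. So were single sites outside the rule and the named genes of the bile acid pathway. The alternatives were the upper 50% of each list by score, 50% overlap, equal list size, regions inside or overlapping transcripts, all regions of a gene, a minimum of 50 tags, a fold of 2, another scale and a pseudocount of 5. A start region that covers the start itself was added after seeing the data. Single values of a few genes are not reported here.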

Additional observations from a re-analysis of the deposited data

How the results depend on the processing

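No paired analysis was possible because there is a single library of each genotype. With the upper 50% of each list by score, 137 transporter regions remained listed in Pemt-/- and 190 in Pemt+/+, 55.8% of the latter were found in the other library, no gene (0) passed 1.5-fold downwards, 5 and 3 regions were in the shorter lists, and 4 and 4 genes had a start region. With lists of equal size, 70.9% of Pemt-/- and 72.3% of Pemt+/+ regions were found in the other library, and 1 gene passed downwards. When all regions of a gene entered, 36.3% of tags came from Pemt-/- and 22 genes passed downwards, since regions of 1 library only enter with 0 tags from the other and more of these are in Pemt+/+. In that setting 29.8% of all genes passed downwards. At a fold of 2, 0 genes passed upwards and 0 downwards, and with a pseudocount of 5 tags 1 and 1 did. With the start itself covered, chosen after seeing the data, 4 and 4 genes had a start region. The other 36 values of the comparisons and 39 values of single genes stayed within the spread set for them. No gene past 1.5-fold changed sides of 1, but not all stayed past 1.5-fold. Abcd2 fell to 1.13 with all regions and to 1.44 with the pseudocount. Abca15 moved to 0.721 with all regions and Abcf3 to 0.702 with the pseudocount. Abca8a and Slco1c1 stayed past 1.5-fold in each setting that gave them a value. Abcb4, with 1.09 and not past 1.5-fold, fell below 1 with the upper 50% by score (0.9), with 50% overlap (0.952) and with all regions (0.887), and Abcf3 went from 0.638 to 0.319 with all regions. Tag numbers limit genes with few reads, such as Abcf3, whose interval ran from 0.308 to 1.32.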
